A study of Mus musculus with 104 samples.

Results

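The Auts2 break cluster is a 2 Mb stretch of mouse chromosome 5, from 131500001 to 133500000 in mm9 coordinates, in which DNA break junctions accumulated under replication stress. Its members are the junctions placed there in any of the 24 deposited tables, with each read counted once per table: 2540 of 2018794 junctions, or 0.478% of the 531098 that lay more than 5 Mb from their own bait break. The window was chosen on measured values, namely its junction counts under aphidicolin against DMSO and in progenitors against stem cells, so the level in those comparisons, bin calls included, is given here as a description and supports nothing further.

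The junctions were read by HTGTS-Seq, a translocation sequencing assay. A double-strand break cut at a known bait site is joined in the cell to breaks elsewhere, the joined DNA is amplified from the bait side, and each read gives the position and strand of the partner, called the prey. The cells were mouse neural progenitor cells induced from embryonic stem cells (NPC) and the embryonic stem cells themselves (ESC), of 2 lines of strain C57BL/6/129SVE. All groups, controls included, carried the genotype Xrcc4-/- p53-/-. They lack an end-joining factor and a tumour suppressor, so breaks were read in cells that cannot use the classical end-joining route in full. Cells received either aphidicolin (APH), which slows replication forks by inhibiting replicative polymerases, or its solvent DMSO. Neither label nor protocol used here states a dose or duration. The bait break was on chromosome 7, 12 or 15 (bait 7, bait 12 and bait 15). The 4 conditions, NPC APH, NPC DMSO, ESC APH and ESC DMSO, had 6 pools each, 1 for each line and bait, made of 104 labelled experiments. The tables hold no expression values, so the labelled cell types could not be checked against marker genes. Nothing in the labels says whether experiments or pools were cultured separately, and p-values below therefore measure a spread between pools that may be technical.

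Recurrent break clusters are stretches of long genes in which breaks recur when replication is slowed. Such genes are typically transcribed and replicate late, and many code for proteins of the nervous system. Auts2 encodes a nuclear protein that works with Polycomb complexes and is needed in neuronal development.

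No mm9 annotation was at hand, so the gene was placed by landmarks in the reads. The prey of 1 NPC APH read matched the RefSeq promoter of Galnt17, a glycosyltransferase gene, over 79 bases, and the deposited alignment put that match at 131783488 to 131783566 on chromosome 5. Another NPC APH read matched the RefSeq promoter of Gm40338 over 41 bases at 131560544 to 131560584. In the RefSeq gene order (GRCm38.p6, used for order only) the next protein-coding gene on the telomeric side of Galnt17 is Auts2, and the one after it is Castor2. The bulk of the junctions described below lie beyond the Galnt17 start on its telomeric side, where Auts2 follows: the middle 80% of those in NPC APH fell between 131.93 and 132.86 Mb. Exons and introns were not assigned.

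Junctions of the window have 2 orientations. In all 2540, a plus-strand junction lay at the lower end of the prey alignment, with the prey running towards the telomere, and a minus-strand junction at its upper end, with the prey running towards the centromere. The sequences that follow show 1 of each per bait in ESC APH. Each is the junction nearest to the median of the minus-strand junctions on the centromeric side of the window's middle, or of the plus-strand junctions on the telomeric side, among those with 2 bases of overlap, the commonest overlap, and at least 30 more bases on each side. They read from the bait, 30 bases in lower case, through the 2 bases that fit both bait and prey, in capitals, into 30 bases of prey in lower case, all as read; coordinates are mm9.
Bait 7, minus, chr5:132217719-132217719: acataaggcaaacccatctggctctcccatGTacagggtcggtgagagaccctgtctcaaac
Bait 7, plus, chr5:132642346-132642346: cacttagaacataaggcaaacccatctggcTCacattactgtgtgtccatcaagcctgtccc
Bait 12, minus, chr5:132305240-132305240: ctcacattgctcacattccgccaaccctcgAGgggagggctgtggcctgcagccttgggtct
Bait 12, plus, chr5:132715044-132715044: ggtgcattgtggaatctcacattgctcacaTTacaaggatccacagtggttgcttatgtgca
Bait 15, minus, chr5:132376444-132376444: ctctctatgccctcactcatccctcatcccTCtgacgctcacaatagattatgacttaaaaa
Bait 15, plus, chr5:132748741-132748741: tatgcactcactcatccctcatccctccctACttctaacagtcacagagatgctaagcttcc
The bait side differs between baits, and the prey side differs in every read.

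The NPC pools with bait 15 were not independent of each other. Taking chromosome, position, strand and the start of the prey in the read, and leaving out the bait chromosome, the line 1 and line 2 APH pools shared 33979 junctions, which is 44.9% of the line 1 pool and 58.9% of the line 2 pool. Line 1 APH and line 2 DMSO shared 23837 junctions, 31.5% and 47.1% of those pools. Pools were matched by these junction features only, not by read name or sequencing run. Experiment by experiment, line 1 APH A matched line 2 DMSO A, with 74.4% of the smaller of the pair shared, and line 1 APH C matched line 2 DMSO D, with 70.6%. Line 1 DMSO B and C matched line 2 DMSO B and C, with 66.3% and 75.8%. The rows of the line 2 APH table that carry an experiment letter were in line 1 APH for 73.4% of junctions and in line 1 DMSO for 0.104%. Its rows without a letter were in line 1 DMSO for 66.9% and in line 1 APH for 1.06%.

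Window shares were close within the matches of line 1 APH with line 2 DMSO experiments. Line 1 APH A held 0.848% of its junctions in the window and its match in line 2 DMSO 0.792%. Line 1 APH C held 0.560% and its match in line 2 DMSO 0.567%. The 2 other line 2 DMSO experiments, B and C, held 0.256% and 0.267%, and their matches in line 1 DMSO held less, 0.188% and 0.209%. In the line 2 APH table, the rows with a letter held 0.651% (95% Clopper-Pearson interval 0.585 to 0.723%, counting error only), and the rows without one held 0.184% (0.118 to 0.273%). The tables do not show which labels are right, so the main NPC results are also given without the line 2 bait 15 pools. Of the other pool pairs, 2 shared 5% or more of the smaller pool: NPC and ESC line 1 bait 12 under DMSO, with 12.9%, and NPC lines 1 and 2 with bait 12 under APH, with 9.83%. The remaining 270 pairs of pools shared at most 3.91%. Single experiments with bait 12 shared more: 39.6% of the smaller for NPC line 1 APH C and line 2 APH D. For NPC line 1 DMSO B and ESC line 1 DMSO A it was 29.4%. Results without line 2 bait 15 keep these bait 12 pools. In the window, the pools without NPC line 2 bait 15 summed to 1824 distinct junctions, of which 19 were repeats between pools.

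**Figure D1:**
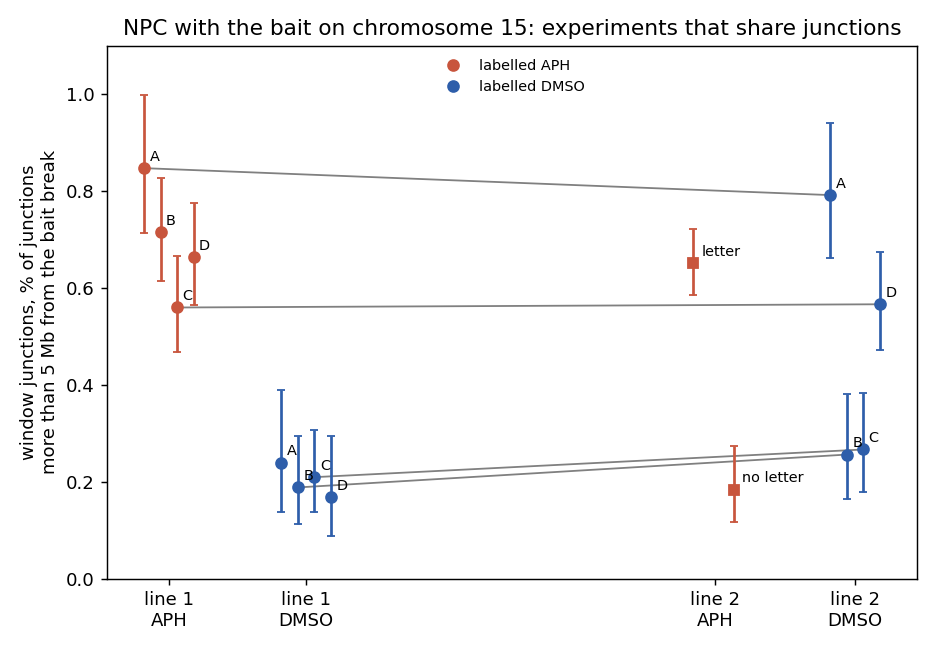
Window junctions as a percentage of junctions more than 5 Mb from the bait break (y axis) for each experiment of the NPC pools with the bait on chromosome 15, with 95% Clopper-Pearson intervals; circles are experiments by letter, squares are the rows with (letter) and without (no letter) an experiment letter in the line 2 APH table, red is labelled APH, blue is labelled DMSO, and grey lines join lettered experiments that share 5% or more of the smaller one's junctions. Line 2 DMSO A and D sit at 0.792 and 0.567%, beside the line 1 APH experiments they share junctions with.

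Depth differed between the cell types. Counting junctions more than 5 Mb from the bait break, the 6 pools ranged from 16325 to 88587 in NPC APH, from 12526 to 58601 in NPC DMSO, from 6114 to 10385 in ESC APH and from 4713 to 12945 in ESC DMSO. Shares below are percentages of these junctions. The window held 94 to 608 junctions per NPC APH pool, 22 to 307 per NPC DMSO pool, 31 to 120 per ESC APH pool and 2 to 16 per ESC DMSO pool, so ESC DMSO values are coarse. The sources used here mention no molecular identifiers, and intervals cover counting error only.

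Under APH the Auts2 window held a larger share of junctions than under DMSO in every line and bait pair, in both cell types. In NPC the share was 0.363, 0.495 and 0.686% under APH in line 1 (bait 7, 12 and 15) and 0.513, 0.576 and 0.560% in line 2, against 0.206, 0.168 and 0.201% under DMSO in line 1 and 0.179, 0.176 and 0.524% in line 2. Leaving aside line 2 bait 15, the lowest APH pool stood above the highest DMSO pool; with it, the groups overlapped. The NPC means were 0.532% ± 0.106 under APH and 0.242% ± 0.139 under DMSO (SD, n = 6 pools each), and the APH share was 1.07 to 3.41 times the DMSO share of its pair. Leaving out line 2 bait 15, they were 0.527% ± 0.118 under APH and 0.186% ± 0.0166 under DMSO (SD, n = 5), and the ratios ran from 1.76 to 3.41.

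In ESC the share was 0.507, 0.707 and 0.934% under APH in line 1 (bait 7, 12 and 15) and 0.502, 0.962 and 1.53% in line 2, against 0.0424, 0.147 and 0.138% under DMSO in line 1 and 0.159, 0.108 and 0.261% in line 2. The groups did not overlap, and the smallest gap within a pair was a ratio of 3.16, in line 2 bait 7. The ESC means were 0.858% ± 0.387 under APH and 0.142% ± 0.0713 under DMSO (SD, n = 6 pools each), and the ratio of a pair reached 11.9 in line 1 bait 7, where the DMSO pool held 2 window junctions. The mean difference, APH minus DMSO, was 0.29 percentage points ± 0.165 in NPC, or 0.341 ± 0.121 without line 2 bait 15, and 0.715 points ± 0.336 in ESC (SD over pairs). Restricted to sequencing runs that both treatments of a pair shared, the differences were 0.293 points in NPC and 0.713 points in ESC, each positive in 6 of 6 pairs; without line 2 bait 15 the NPC difference in shared runs was 0.345 points, positive in 5 of 5 pairs.

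**Figure D2:**
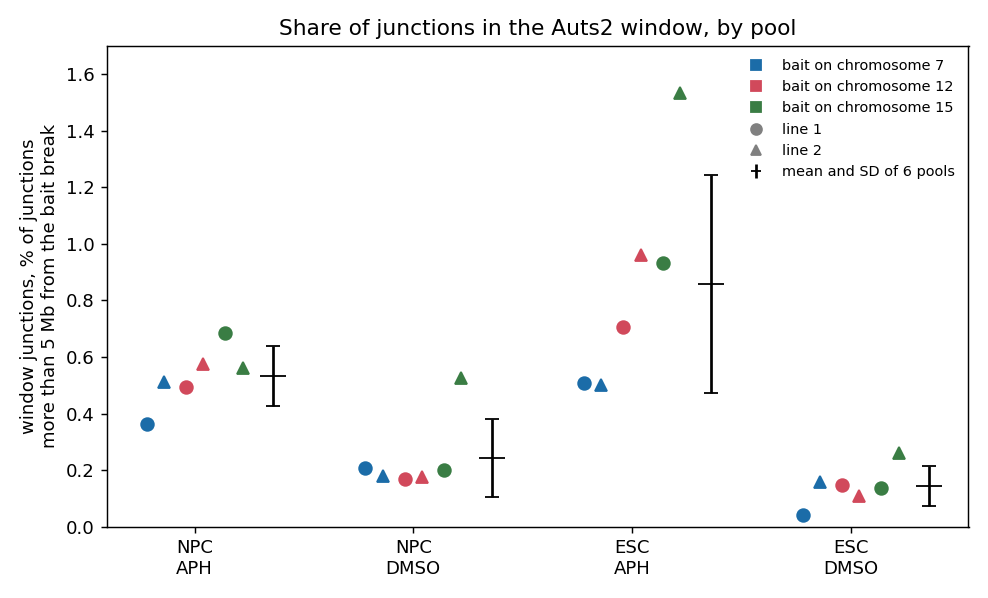
Window junctions as a percentage of junctions more than 5 Mb from the bait break (y axis) for the 24 pools by condition (x axis); colour gives the bait chromosome, circles are line 1, triangles are line 2, and the black bar is the mean with its SD over 6 pools. All ESC APH pools lie at or above 0.502% and all ESC DMSO pools at or below 0.261%, and the NPC DMSO triangle at 0.524% is line 2 bait 15.

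Between cell types the direction depended on the treatment, with junctions more than 5 Mb from the bait break as the denominator. Under APH the NPC share was below the ESC share in 5 of 6 pairs, with means of 0.532% in NPC and 0.858% in ESC and a mean difference of -0.325 points ± 0.344 (SD). With line 2 bait 15 left out, it was -0.195 points ± 0.146, lower in 4 of 5 pairs. In line 2 bait 7, the exception, NPC held 0.513% and ESC 0.502%. This order rests on the denominator: ESC tables hold a larger part of their junctions near the bait, and with all junctions as the denominator the mean difference was 0.0605 points, in the opposite direction. Under DMSO the NPC share was above the ESC share in 6 of 6 pairs, with means of 0.242% in NPC and 0.142% in ESC. The mean difference was 0.0999 points ± 0.0956 (SD). With all junctions as the denominator it was 0.0511 points ± 0.051 (SD), so on that denominator both treatments had the same direction. Setting line 2 bait 15 aside, the means under DMSO were 0.186% in NPC and 0.119% in ESC.

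Set among 2 Mb tiles off the bait chromosomes, the window had the highest mean share of 1128 tiles in NPC APH and in ESC APH. The grid was laid so that the window filled 1 tile, while other clusters could be cut by it. The next tile in ESC APH, on chromosome 8 from 115.5 Mb, held 0.658%, and the Wwox window described below, which it overlaps in part, held 0.812%. As the window was also picked on its level, its rank is a description only. It stood at 9.11 times the median tile in NPC APH and at 15.7 times in ESC APH. It ranked 5th of 1128 in NPC DMSO, at 3.79 times the median tile, and 48th of 1127 in ESC DMSO, at 2.41 times. Without line 2 bait 15 it ranked 15th in NPC DMSO, at 2.92 times the median tile, and stayed highest in NPC APH, at 9.15 times. The window made up 7.12 to 11.2% of all chromosome 5 junctions of an NPC APH pool and 9.15 to 22.3% of those of an ESC APH pool, and line 2 bait 15 was at neither end of the NPC range.

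The cluster filled only the middle of the window, and not the same part in both cell types. By 500 kb, bin 1 (from 131.5 Mb) held 0.0964% ± 0.0159 of junctions in NPC APH, 0.0543% ± 0.0227 in NPC DMSO, 0.0298% ± 0.0226 in ESC APH and 0.0464% ± 0.03 in ESC DMSO (SD, n = 6 pools each). Bin 2 (from 132 Mb) held 0.232% ± 0.054 in NPC APH, 0.0866% ± 0.0628 in NPC DMSO, 0.396% ± 0.139 in ESC APH and 0.048% ± 0.0393 in ESC DMSO. Bin 3 (from 132.5 Mb) held 0.19% ± 0.0425 in NPC APH, 0.0851% ± 0.0587 in NPC DMSO, 0.418% ± 0.234 in ESC APH and 0.0375% ± 0.0367 in ESC DMSO. Bin 4 (from 133 Mb) stayed at or under 0.0164% in each condition. The bin just before the window held 0.0334% in NPC APH and 0.0236% in ESC APH, and the bin just after it 0.0171% in NPC APH and 0.0265% in ESC APH. Bin 1 thus stood above its outer neighbour in NPC APH and near it in ESC APH. Leaving out line 2 bait 15, bins 1 to 3 held 0.0969, 0.23 and 0.188% in NPC APH and 0.0457, 0.0627 and 0.0625% in NPC DMSO.

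The counts of these bins were also fitted with edgeR's quasi-likelihood test over all 882 bins of the genome that passed a filter on low counts, with line and bait as blocks. Bin 4 and both outer neighbours, with 93 to 138 junctions over all pools, did not pass the filter. For APH against DMSO in NPC, bins 2 and 3 were called higher at an adjusted p below 0.05, 2 of the 3 window bins tested, where 8.05% of all bins were called higher and 0.34% lower. Their log2 fold changes were 1.52 ± 0.38 and 1.27 ± 0.37 (SE), and that of bin 1 was 0.79 ± 0.34, not called. Without the NPC line 2 bait 15 pools they were 1.89, 1.64 and 1.08, and all 3 were called. The NPC calls were fragile: without line 1 bait 15 neither bin 2 nor bin 3 was called, without line 1 bait 12 bin 3 was not, and with line 1 left out or with no block no bin of the genome was (edgeR; 43 and 52 bins at an unadjusted p below 0.05, against 71 bins called by DESeq2 with the block). All these runs kept the NPC line 2 bait 15 pools. With the bait 15 pools of both lines left out of NPC, bins 1, 2 and 3 were called higher. For APH against DMSO in ESC, bins 2 and 3 were called higher, where 2.27% of all bins were and none was lower (0%), with log2 fold changes of 3.25 ± 0.48 and 3.49 ± 0.49 (SE). They were 3 and 1 of 882 in order of fold change, and bin 1 had -0.43 ± 0.61. Both ESC calls stood with each pair or line left out and with no block. The window was picked on these contrasts, so the calls describe it and support nothing further.

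For NPC against ESC under APH, which also bore on the choice, bin 1 was called higher, where 13.6% of all bins were called higher and 3.17% lower. Its log2 fold change was 1.99 ± 0.48 (SE), or 2.25 without the NPC line 2 bait 15 pools, and it was not called with line 1 left out or with no block. Bins 2 and 3 had -0.42 ± 0.39 and -0.66 ± 0.39 and were not called. Over all bins 120 were higher and 28 lower; with the total off the bait chromosome as library size the split was 90 higher and 56 lower, and the median log2 fold change of all bins moved by -0.31.

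Where junctions lay within the window was not used to choose it, beyond the 500 kb bins that were called. NPC against ESC under APH bore on the choice, and bin 1 was called higher in it. The tests of position between NPC and ESC below are therefore not independent of the choice. The middle 80% of junctions spanned 0.932 Mb in NPC APH, from 131.93 to 132.86 Mb, and 0.603 Mb in ESC APH, from 132.2 to 132.8 Mb. The median junction of a pool lay 44.9 to 148 kb closer to the centromere in NPC APH than in ESC APH, in 6 of 6 pairs, by a mean of -110 kb ± 40.1 (SD). The two-sided exact sign-flip test over pairs gave p = 0.0312, which no result on 6 pairs can go below, and 0.0625 after adjustment for 4 position tests, which does not pass 0.05. The telomeric side (the 1 Mb from the middle of the window to its end) held 38.1% ± 2.02 of window junctions in NPC APH and 49% ± 5.1 in ESC APH (SD, n = 6 each), a difference of -10.9 points, lower in 6 of 6 pairs (exact sign-flip p = 0.0312, adjusted 0.0625). With line 2 bait 15 left out, the differences were -103 kb and -9.58 points, in 5 of 5 pairs (exact sign-flip p = 0.0625, the smallest that 5 pairs allow).

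The centromeric edge of the cluster differed between the cell types. The 200 kb from 131.9 to 132.1 Mb, picked after its counts were seen, held 290 of 1532 window junctions in NPC APH (18.9%; 12.5 to 21.1% by pool) and 19 of 439 in ESC APH (4.33%; 2.27 to 9.28% by pool), and the pools of the 2 cell types did not overlap. Of the NPC APH junctions there, 229 were on the minus strand, or 79%. NPC DMSO had 97 of 510 junctions there (19%; 4.55 to 31.6% by pool), or 38 of 203 (18.7%) without line 2 bait 15. ESC DMSO had 2 of 59 there. Within NPC, the APH minus DMSO difference was 21.1 kb ± 192 in the median and -3.54 points ± 10.3 in the telomeric share (SD over 6 pairs), higher in 2 of 6 pairs for each (exact sign-flip p = 0.844 and 0.5). Setting line 2 bait 15 aside, these were 33.2 kb and -3.71 points, higher in 2 of 5 pairs.

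**Figure D3:**
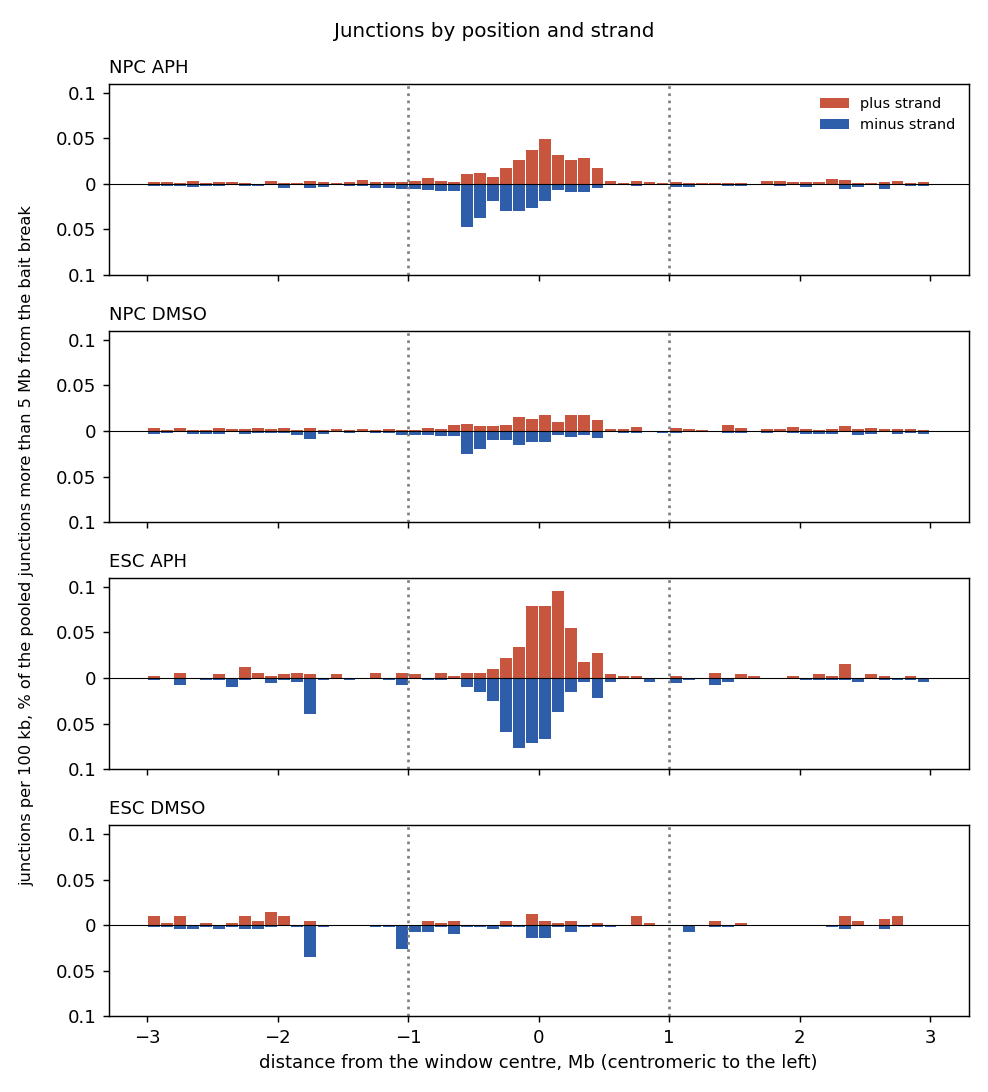
Junctions per 100 kb as a percentage of the condition's pooled junctions more than 5 Mb from the bait break (y axis; plus strand up in red, minus strand down in blue) by distance from the window centre in Mb (x axis, centromeric to the left), with dotted lines at the window's ends, for NPC APH, NPC DMSO, ESC APH and ESC DMSO from top to bottom. Minus-strand junctions lean to the centromeric side and plus-strand ones to the telomeric side, and the NPC panels have a minus-strand peak at the centromeric edge.

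The strands were nearly even over the whole window in NPC APH, less so in single pools of the other conditions, and unevenly placed in it. Plus-strand junctions made up 51.8% ± 1.47 of a pool in NPC APH, 44.9% ± 9.13 in NPC DMSO and 50% ± 13.2 in ESC APH (SD, n = 6 each), with pools at 50 to 54.4% in NPC APH and at 30.2 to 64.8% in ESC APH. In NPC without line 2 bait 15 it was 51.8% ± 1.65 under APH and 43.6% ± 9.61 under DMSO (SD, n = 5). In ESC DMSO 23 of 59 junctions were plus-strand (39%). NPC APH and ESC APH differed by 1.74 points ± 12.9, higher in NPC in 3 of 6 pairs (exact sign-flip p = 0.75), and by 2.43 points without line 2 bait 15. On the telomeric side prey running towards the telomere prevailed, and on the centromeric side prey running towards the centromere. In NPC APH the plus share by pool ran from 72.8 to 81.8% on the telomeric side and from 33.8 to 43.8% on the centromeric side, with no overlap. In NPC DMSO it ran from 41.7 to 75% on the telomeric side and from 20 to 51.4% on the centromeric side. In ESC APH it ran from 36.4 to 82.2% on the telomeric side and from 23.8 to 46.9% on the centromeric side, so the ranges overlapped between pools though not within any pool.

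The telomeric side had the higher plus share in 6 of 6 pools of each of these 3 conditions. The mean difference, telomeric minus centromeric, was 39.1 points ± 6.64 in NPC APH, 24.2 points ± 15.8 in NPC DMSO and 27.1 points ± 12.1 in ESC APH (SD, n = 6; exact sign-flip, two-sided, p = 0.0312 each, 0.0625 adjusted over the 6 strand tests). None passes 0.05 once adjusted, and p could not be smaller with 6 pools. Without line 2 bait 15 the difference was 39.9 points in NPC APH and 21.8 in NPC DMSO, positive in 5 of 5 pools. ESC DMSO, with 59 junctions, was not tested; its plus share was 45.8% on the telomeric side and 34.3% on the centromeric side over all pools.

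The 2 Mb on either side of the window served as the comparison. The plus share on the telomeric flank minus that on the centromeric flank was 9.7 points ± 25.8 in NPC APH and 8.73 points ± 37.8 in ESC APH (SD, n = 6). The window's own difference exceeded that of the flanks by 29.4 points ± 23.7 in NPC APH, in 5 of 6 pools (exact sign-flip p = 0.0625, adjusted 0.0938), and by 18.3 points ± 34.4 in ESC APH, in 5 of 6 pools (p = 0.25, adjusted 0.3; exact). Leaving out line 2 bait 15, the NPC APH excess was 28.9 points, in 4 of 5 pools. The pool below 0 was line 2 bait 12 in NPC APH and in ESC APH. The flanks held 32 to 167 junctions per NPC APH pool and 9 to 36 per ESC APH pool.

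The strand bias changed sign near the middle of the window. The point that best separated minus-strand junctions on its centromeric side from plus-strand ones on its telomeric side was 132.37 Mb in NPC APH, 132.35 Mb in NPC DMSO and 132.4 Mb in ESC APH. With line 2 bait 15 left out it stayed at 132.37 Mb in NPC APH and was at 132.47 Mb in NPC DMSO, where 203 junctions remained. By the split over all pools, 1085 of 1532 junctions (70.8%) lay on the matching side in NPC APH and 280 of 439 (63.8%) in ESC APH. The median plus-strand junction lay telomeric of the median minus-strand one in 6 of 6 pools of NPC APH, by 240 to 344 kb, and in 6 of 6 of ESC APH, by 48.5 to 222 kb. The lowest NPC APH pool thus exceeded the highest ESC APH pool in this distance. In NPC DMSO the distance was 86 to 535 kb, positive in 6 of 6 pools. The line 2 bait 15 pools set neither end of the NPC ranges.

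**Figure D4:**
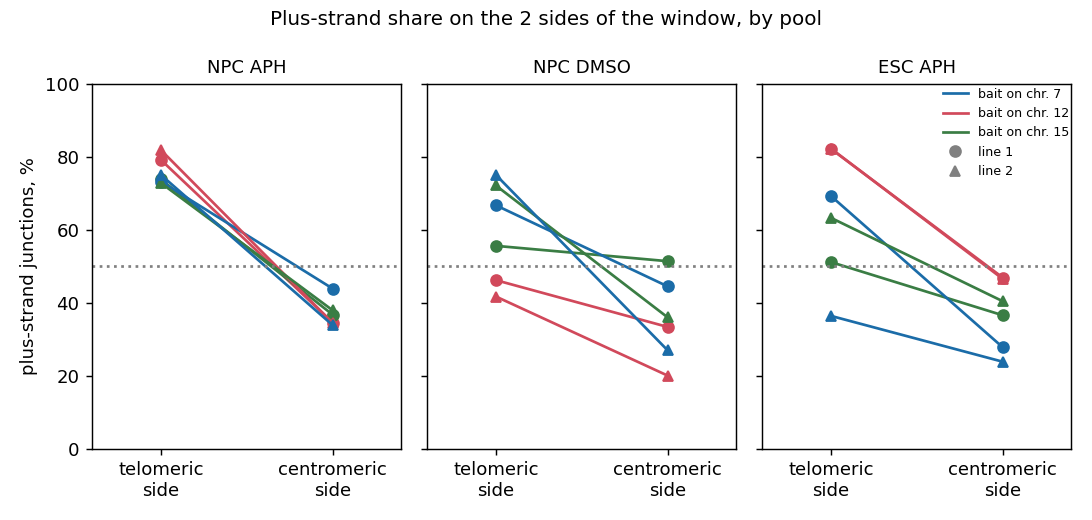
Plus-strand junctions as a percentage of the window junctions (y axis) on the telomeric and the centromeric side (x axis) of each pool in NPC APH, NPC DMSO and ESC APH; colour gives the bait, circles are line 1, triangles are line 2, lines join the sides of a pool, and the dotted line is 50%. Each of the 18 lines descends from the telomeric to the centromeric side, most evenly in NPC APH.

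Under APH the bait averages spanned a wider range in ESC than in NPC, a difference that was not tested. In NPC APH the 2 pools of bait 7 averaged 0.438%, those of bait 12 0.536% and those of bait 15 0.623%, where the line 1 pool alone had 0.686%. In ESC APH the averages were 0.504% for bait 7, 0.834% for bait 12 and 1.23% for bait 15, so bait 15 was highest and bait 7 lowest in both cell types. Under DMSO the averages for bait 7, 12 and 15 were 0.193, 0.172 and 0.363% in NPC, where bait 15 includes the line 2 pool at 0.524%, and 0.101, 0.127 and 0.199% in ESC. Pooled over both lines of ESC APH, 36.5% of 74 window junctions were plus-strand with bait 7. The plus share was 64.2% of 148 with bait 12 and 48.8% of 217 with bait 15. In line 1 and line 2 it was 45.2 and 30.2% with bait 7, 63.3 and 64.8% with bait 12, and 43.3 and 53.3% with bait 15. The pools of bait 7 and bait 15 thus overlapped, and the strand by bait was not tested. With bait 7, ESC APH junctions on other chromosomes than the bait's were 42.5% plus-strand, against 51.3% with bait 12 and 51.25% with bait 15. In NPC APH the plus share was 52.2, 51.9 and 51.4% for bait 7, 12 and 15.

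Nearly all single experiments had junctions in the window. How often other 2 Mb tiles had them was not counted, so presence alone does not set the window apart. The median tile held 0.0584% of junctions in NPC APH and 0.0639% in NPC DMSO. Under APH, some reads were listed under 2 letters, 10907 of them in line 2 bait 12 of NPC and 7701 in line 1 bait 7 of ESC. They were counted in no experiment, which left 19 of 20 lettered experiments in NPC APH and 26 of 28 in ESC APH with reads of their own. In NPC APH these 19 all had window junctions, with shares of 0.303 to 0.848% and a median of 0.546%. In NPC DMSO 23 of 24 did, with a median of 0.21% and a highest value of 0.792%. In ESC APH these 26 all did, with shares of 0.113 to 1.76% and a median of 0.749%. In ESC DMSO 14 of 16 did, with a median of 0.153% and a highest value of 0.532%. Experiments in ESC held 449 to 3646 junctions, so a single ESC value rests on few reads. With line 2 bait 15 left out, 19 of 20 NPC DMSO experiments did, with a median of 0.201% and a highest value of 0.309%. The experiment D of NPC line 2 bait 7 under DMSO had none, and a count of 0 there allows a share of up to 0.112%.

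No single position made the cluster. The 2540 reads fell on 1758 distinct combinations of position and strand, of which 1094 were seen once, and the most read one was seen 5 times. Of the combinations, 552, with 1205 reads, occurred in more than 1 pool. These counts include the NPC bait 15 pools that share junctions. Without NPC line 2 bait 15, 19 of 1824 distinct junctions, told apart also by the prey's start in the read, were repeats between pools. The busiest 10 kb held 29 of 1532 junctions in NPC APH (1.89%) and 16 of 439 in ESC APH (3.64%). Junctions of NPC APH fell in 169 of the 200 tiles of 10 kb, and those of ESC APH in 106. Within a pool, the number of distinct combinations of position and strand was 94.9 to 99.1% of the number of reads in NPC APH and 65.9 to 93.5% in ESC APH, so repeated reads of a position were commoner in ESC.

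Most junctions of the window used microhomology, a few bases that fit both partners. In NPC APH a pool had 78.1% ± 3.5 junctions with microhomology, 6.69% ± 1.13 direct joins and 15.2% ± 3.27 with inserted bases (SD, n = 6), or 78.2, 6.53 and 15.2% without line 2 bait 15. In ESC APH it had 63.3% ± 9.85, 6.55% ± 2.78 and 30.2% ± 8.11. The commonest overlap was 2 bases in each condition, as in the sequences printed above. The mean microhomology was 3.11 bases ± 0.147 in NPC APH and 3.04 bases ± 0.604 in ESC APH.

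These values lay near those of the rest of each pool, meaning junctions off the bait chromosome and outside the window. The rest had 75.7% ± 0.654 microhomology in NPC APH and 62.7% ± 5.53 in ESC APH. The window minus the rest was 2.41 points ± 3.92 in NPC APH, above 0 in 5 of 6 pools (exact sign-flip p = 0.219, adjusted 0.438 over 8 structure tests), and 0.585 points ± 7.99 in ESC APH, above 0 in 3 of 6 (p = 0.906, adjusted 1; exact). In NPC APH without line 2 bait 15 it was 2.73 points, above 0 in 4 of 5 pools (exact sign-flip p = 0.25). The mean microhomology length, window minus rest, was -0.12 bases ± 0.179 in NPC APH and -0.531 bases ± 0.732 in ESC APH (exact sign-flip p = 0.188 and 0.156, adjusted 0.438 each), and -0.132 bases in NPC APH without line 2 bait 15 (exact p = 0.25). None of the 8 structure tests passed 0.05, and a difference within these spreads was not detectable.

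**Figure D5:**
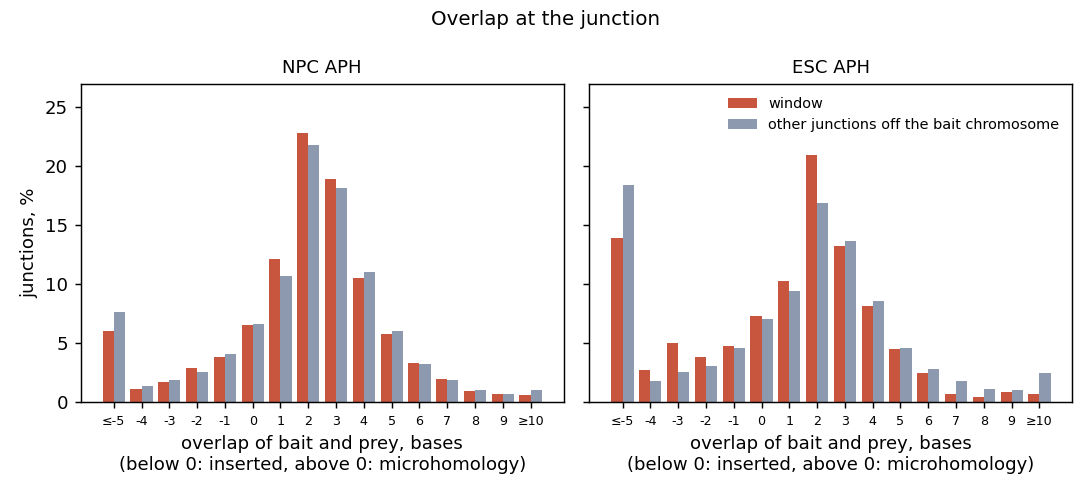
Percentage of junctions (y axis) by the overlap of bait and prey in bases (x axis; below 0 are inserted bases, 0 is a direct join, above 0 is microhomology) in NPC APH and ESC APH, for window junctions in red and for the other junctions off the bait chromosome in grey-blue; the end bars gather longer insertions and longer overlaps. Among single overlaps the bar at 2 bases is the tallest for both sets in both panels, and the bars below 0 are higher in ESC.

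Wwox and Fhit are classical fragile sites, and a 2 Mb window known by each name was read in the same way. The genes themselves were not placed on mm9 here. The Wwox window (chromosome 8 from 116.5 Mb) held 0.244% ± 0.045 of junctions in NPC APH, 0.212% ± 0.0499 in NPC DMSO, 0.812% ± 0.293 in ESC APH and 0.224% ± 0.138 in ESC DMSO (SD, n = 6). It was thus close to Auts2 in ESC APH, where Auts2 held 0.858%, and lower than Auts2 in NPC APH, where Auts2 held 0.532%. The Fhit window (chromosome 14 from 9.5 Mb) held 0.0876% ± 0.0369 in NPC APH and 0.181% ± 0.0989 in ESC APH. Setting line 2 bait 15 aside, NPC APH held 0.24% in Wwox and 0.092% in Fhit. Over all pools of NPC APH, the plus share on the telomeric minus that on the centromeric side was 38 points in Auts2, 27 points in Wwox and -4.21 points in Fhit (39, 27.1 and -5.22 without line 2 bait 15). In ESC APH it was 25.7 points in Auts2, 11.6 in Wwox and 7.37 in Fhit. In ESC APH the middle split Auts2 nearly evenly (218 junctions centromeric, 221 telomeric), but not Wwox (327 and 92) or Fhit (16 and 78). In NPC APH the counts were 936 and 596, 429 and 276, and 58 and 177. Over all pools, the median plus-strand junction lay telomeric of the minus-strand one by 306, 217 and 57.8 kb in NPC APH (Auts2, Wwox, Fhit). In ESC APH it did so by 140, 112 and 199 kb, most in Fhit. No test was made between windows.

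The 5 bins whose level most resembled the Auts2 window over the 24 pools were taken from 871 bins of 500 kb more than 5 Mb from it and from the bait breaks, by Pearson's r of log2 CPM. They were on chromosome 8 from 117 Mb (r = 0.81) and from 121 Mb (0.78), on chromosome 6 from 77.5 Mb (0.74), on chromosome 2 from 67.5 Mb (0.73) and on chromosome 3 from 55.5 Mb (0.72). The median r of the 871 bins was 0.083. The first of these bins lies in the Wwox window. The 24 pools share baits, lines and depth, and some share junctions, so r is a description.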

How the data were processed

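Each row of a deposited table is 1 junction read, so the values are raw junction counts with no normalization, per the file headers. Reads had been aligned to mm9 with Bowtie2 by the authors, per the submitters' processing notes; no source used here names versions, the junction caller or down-sampling. Repeats of a read name within a table, 18609 of 2037403 rows, were dropped. Letters of 3 tables did not match the labels, and these were used as pools only: NPC line 2 bait 15 APH and the ESC bait 7 DMSO pools of both lines. The bait break was taken where most bait alignments began: 80451956 (chromosome 7), 13000729 (chromosome 12) and 86848129 (chromosome 15). No per-sample column of another series was found.

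The window, the comparison windows and the tests were chosen with earlier results of these data known. The design gave as named members the window, its 4 bins of 500 kb, the adjoining bins and the 5 most alike bins. Strand, position and structure were tested with exact sign flips, with Benjamini-Hochberg adjustment within each family. Tests between conditions flipped the 6 pairs of pools, and tests within a condition flipped its 6 pools. Clopper-Pearson intervals were computed with scipy 1.17.1. Structure is the end of the bait in the read minus the start of the prey plus 1: above 0 microhomology, below 0 inserted bases.

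Bins of 500 kb were fitted with edgeR 4.0.16 in R 4.3.3 (TMM, filterByExpr with a minimum count of 5, glmQLFTest) on all 24 pools: APH was a term per cell type with 1 block per cell type and pair, and NPC against ESC used pair blocks and the 4 conditions. The fit was tested on simulated data. DESeq2 1.42.0 was an alternative. CPM for likeness used a prior count of 1. Pools of the same line and bait share a cell line and a break; their deviations from the condition means correlated at 0.509 to 0.748 between NPC APH and DMSO, 0.338 to 0.452 between ESC APH and DMSO, and 0.424 to 0.559 between NPC APH and ESC APH, each in 6 of 6 pairs, and so the pairs were kept as blocks.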

Additional observations from a re-analysis of the deposited data

Results flagged for a closer look

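Over 48 groups of pools or experiments checked for a value far from the others, 5 were found, and chance gives about 1 in 20 groups. Among the 6 NPC DMSO pools, line 2 bait 15 held 0.524% of junctions in the window and the next pool 0.206%, a gap that is 0.893 of the whole range. This is the pool whose experiments A and D share most of their junctions with experiments labelled APH in line 1. Among the 4 experiments of NPC line 1 bait 7 under APH, experiment C held 0.303%, below the next at 0.382%. Among the 4 of NPC line 2 bait 7 under DMSO, experiment D held 0%, below the next at 0.198%. Among the 4 of ESC line 1 bait 15 under APH, experiment C held 0.642%, below the next at 1.05%. Among the 4 of ESC line 2 bait 7 under APH, experiment A held 0.113%, below the next at 0.572%.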

How the results depend on the processing

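The APH differences in window share kept their direction under each alternative run. With all junctions as denominator they were 0.12 points in NPC and 0.11 in ESC, and NPC minus ESC under APH turned to 0.0605. Leaving out 1 pair at a time gave 0.603 to 0.79 points (ESC) and 0.251 to 0.341 (NPC) for APH minus DMSO, -0.393 to -0.195 for NPC minus ESC under APH and 0.0672 to 0.116 under DMSO. Of 89 alternative values of the window share, 86 moved by less than the spread (SD) between pairs. Leaving out a pair, a bait, a line or the block cannot move the mean by more than that spread. The count of 86 is therefore no measure of stability. With 5 pairs the exact sign-flip p cannot go below 0.0625, so each strand and position test at p = 0.0312 lost that level when a pair was left out: the plus share difference between sides was 37.4 to 41.0 points in NPC APH, 19.4 to 28.2 in NPC DMSO and 24.2 to 29.97 in ESC APH, the NPC minus ESC median position -123 to -102 kb and telomeric share -11.9 to -9.58 points. Leaving out both NPC bait 15 pairs was an alternative chosen after seeing the data. The differences between sides were then 40.6 points in NPC APH and 26.2 in NPC DMSO (exact sign-flip p = 0.125 each, over 4 pools). The position differences were -106 kb and -10.2 points (exact sign-flip p = 0.125 each, over 4 pairs). In the middle 1 Mb the difference between sides in NPC DMSO was 26.2 points and the telomeric share difference -4.9 points (exact p = 0.0625 each), and the APH minus DMSO median in NPC turned to -20.3 kb; leaving out pairs took it from -38.6 to 63.7 kb.

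Values near 0 changed sign. The plus share of NPC minus ESC ran from -1.87 to 4.82 points on leaving out pairs. In ESC APH, window minus rest for microhomology was -0.201 points with each position and strand once, -0.558 with the bait chromosome kept, and -2.05 to 2.62 on leaving out pairs; insertion was -2.23 against chromosome 5 and -0.982 to 2.36; direct joins -1.69 to 0.515. In NPC APH direct joins were 0.38 against chromosome 5 and -0.608 to 0.195.

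The number of bins called higher was less stable. For APH in ESC it was 20, and 11 with DESeq2, 13 with no filter, 13 with 1 Mb bins, 4 with no replicate block, 3 without line 1, 8 without line 2 and 7 to 18 on leaving out pairs. For APH in NPC it was 71, and 39 with 250 kb bins, 0 with no replicate block, 0 without line 1 (52 and 43 at an unadjusted p below 0.05, edgeR) and 42 to 104 on leaving out pairs. For NPC against ESC under APH it was 120, and 244 with no filter, 75 with 250 kb bins, 55 with no replicate block and 55 without line 1. The log2 fold change of the second bin, NPC against ESC, was 0.036 as the mean of its 250 kb bins. ESC DMSO pools, with 2 to 16 window junctions, limit every comparison with them.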
